A study of Mus musculus with 22 samples.

Results

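The TGF-beta ligands, receptors and Smads are described here by 10 genes: the 3 TGF-beta ligands Tgfb1, Tgfb2 and Tgfb3, the latent TGF-beta binding protein gene Ltbp1, the receptors Tgfbr1, Tgfbr2 and Tgfbr3, and the intracellular Smad2, Smad3 and Smad7. They were chosen by name, with earlier results of these data known. Shares of the 10 set beside shares of all genes are therefore descriptions. They are 10 of the 54356 genes to which the deposited transcript estimates could be summed. All 10 passed the filter on low counts in both sets of libraries. The RNA came from C57BL/6 mouse embryos at E13.5. Prdm16, the gene of a zinc finger transcription factor, was knocked out conditionally (cKO), and these hearts were set against littermate control hearts, which the labels give as mock for the genetic manipulation. The sample titles name every control library WT (wild type). There were 3 cKO and 3 control whole hearts, 4 cKO and 4 control left ventricles, and 4 cKO and 4 control right ventricles, each a bulk RNA sequencing library. The driver that deletes Prdm16, and the cells in which it acts, are not given in the sources used here. Nothing states that each library is a separate embryo, so p-values measure the spread between these libraries.

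TGF-beta ligands are secreted in a latent complex with their own propeptide and a latent TGF-beta binding protein, which ties the complex to the matrix. Once released, a ligand brings together the type II receptor TGFBR2 and the type I receptor TGFBR1, and the type I receptor phosphorylates SMAD2 and SMAD3, which enter the nucleus with SMAD4. TGFBR3, or betaglycan, is a co-receptor that presents ligand, TGF-beta 2 above all, and SMAD7 is an inhibitor induced by the pathway. In the embryonic heart the pathway is best known for the transformation of endocardium into cushion mesenchyme, from which valves form, and for its action in the epicardium and in the growing myocardium.

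In the GENCODE annotation of GRCm38, Tgfb2 lies at chr1:186622792-186705989 (minus strand), Tgfb3 at chr12:86056745-86079041 (minus), Ltbp1 at chr17:75005568-75392512 (plus) and Tgfbr1 at chr4:47353222-47414931 (plus). Tgfbr3 lies at chr5:107106570-107289629 (minus) and Smad3 at chr9:63646767-63757994 (minus). All counts below are sums over a gene's annotated transcripts.

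Promoter windows from the RefSeq set (GRCm38.p6) are shown for a ligand and a receptor gene whose RNA rose in the cKO left ventricle, Tgfb2 and Tgfbr1, and for the latency gene Ltbp1. Each holds the 250 bases before the annotated start, 5′ to 3′ on the gene's strand: Tgfb2 at chr1:186705990-186706239 (minus strand), Ltbp1 at chr17:75178531-75178780 (plus strand, before a RefSeq start near those of its short forms) and Tgfbr1 at chr4:47352972-47353221 (plus strand). Capitals mark the SMAD-binding core CAGAC, which reads GTCTG on the other strand, and the TATA box TATAAA.
Tgfb2: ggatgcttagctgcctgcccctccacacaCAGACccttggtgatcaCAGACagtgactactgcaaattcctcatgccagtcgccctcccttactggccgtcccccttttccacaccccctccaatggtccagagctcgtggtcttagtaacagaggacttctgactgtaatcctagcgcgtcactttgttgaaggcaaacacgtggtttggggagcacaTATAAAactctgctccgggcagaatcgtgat
Ltbp1: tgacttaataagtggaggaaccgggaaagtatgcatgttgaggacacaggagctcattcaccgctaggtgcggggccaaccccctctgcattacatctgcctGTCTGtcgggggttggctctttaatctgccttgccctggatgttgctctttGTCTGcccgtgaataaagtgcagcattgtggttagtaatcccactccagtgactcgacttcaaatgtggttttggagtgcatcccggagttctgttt
Tgfbr1: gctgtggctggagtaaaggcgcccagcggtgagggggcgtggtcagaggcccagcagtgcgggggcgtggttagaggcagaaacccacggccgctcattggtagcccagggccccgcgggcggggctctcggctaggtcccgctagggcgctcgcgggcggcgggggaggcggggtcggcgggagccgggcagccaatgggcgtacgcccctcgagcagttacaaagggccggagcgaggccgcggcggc
The Tgfb2 window had 53.6% G and C, a TATAAA whose first base was at position -31 from the start, and the core at -221 and -204. The Ltbp1 window had 50.8% G and C and the core at -148 and -97, on the minus strand. The Tgfbr1 window had 74.8% G and C and neither motif. Searched on both strands in the windows of 27025 promoters, CAGAC occurred in 42.1% and TATAAA in 13%, and the full SMAD box GTCTAGAC, which cannot hold a CAGAC, in 0.174%. No SMAD box was in the 6 member windows available, which were these 3 and those of Tgfb1, Tgfbr2 and Smad3. A match is a description of these letters, not a bound site.

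The targeted gene was lower in every cKO library than in every control of its tissue. Prdm16 had 19 to 22.3 CPM (counts scaled to library size with TMM factors) in the cKO whole hearts and 37.4 to 45.3 CPM in the control whole hearts. In left ventricles it had 21.6 to 23.4 CPM in the cKO and 45.4 to 56.2 CPM in controls, and in right ventricles 22.2 to 25.8 CPM in the cKO and 37.5 to 44.3 CPM in controls. The depth was 38590751 to 62004017 estimated reads in a whole heart and 14508722 to 22830716 in a ventricle. Cardiomyocyte markers were abundant in every library (8 genes, 10789 to 15941 TPM, length-scaled transcript abundance, in sum). One library stands apart and touches many of the results below. Right ventricle control 2 had 8 cushion mesenchyme markers at 398 TPM in sum, against 58.6 to 60.4 TPM in the other 3 right ventricle controls. It also had the elastin gene Eln, a gene of outflow vessel wall, at 203 TPM, against 5.33 to 9.29 TPM. Eln is also among the textbook TGF-beta targets described below. The 4 markers of mural cells, which surround vessels, differed less, at 298.5 TPM in sum against 240.3 to 277.1 TPM. Whether this library holds tissue from outside the ventricle was not tested, and results are given with and without it.

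In TPM, which allow levels of different genes to be compared, Ltbp1 had the highest mean of the 10 genes in each of the 6 groups. It averaged 99.4 ± 4.07 TPM in cKO whole hearts and 81.7 ± 2.86 TPM in control whole hearts (SD, n = 3 each). The left ventricle means were 52.6 ± 3.69 TPM in the cKO and 44.8 ± 0.674 TPM in controls (SD, n = 4 each). Tgfbr1, Tgfb2 and Smad2 took the next 3 places in all 6 groups, in changing order, between 21.9 and 54.0 TPM. In cKO left ventricles these 3 could not be ordered, since Tgfb2 (36.4 ± 7.14 TPM), Tgfbr1 (31.4 ± 0.632 TPM) and Smad2 (30.8 ± 1.8 TPM) had overlapping libraries. Tgfbr3, Smad3, Tgfbr2 and Tgfb1 lay between 10.6 and 22.8 TPM on average. Smad7 and Tgfb3 were the lowest 2 in both ventricles, with Tgfb3 at 10.2 ± 0.682 TPM in cKO and 7.08 ± 0.499 TPM in control left ventricles. Among the ligands the order by mean TPM in left ventricles was thus Tgfb2, Tgfb1, Tgfb3, and the type I receptor gene was above the type II receptor gene (Tgfbr2, 15.4 ± 0.69 TPM in cKO and 13.2 ± 0.785 TPM in control left ventricles).

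**Figure D1:**
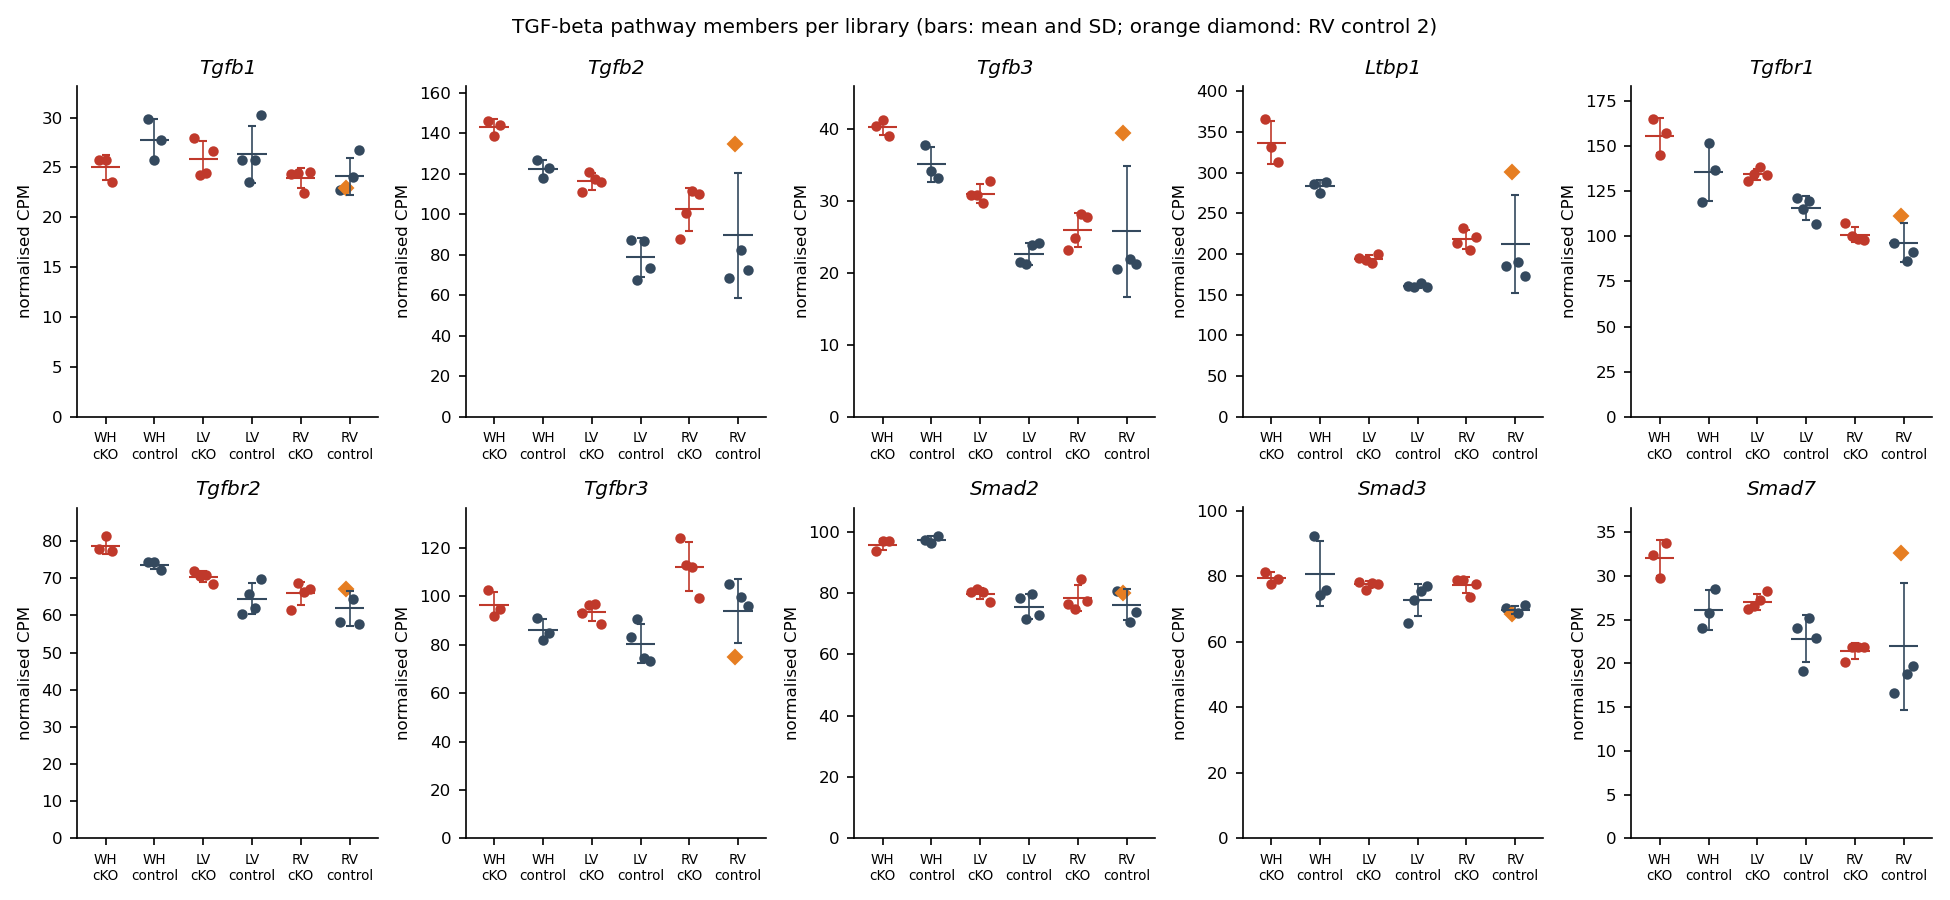
Normalised CPM (vertical axis) of each of the 10 genes in every library, cKO in red and control in dark blue, for whole heart (WH), left ventricle (LV) and right ventricle (RV); horizontal bars are means, whiskers SD, and the orange diamond is RV control 2. Tgfb2 in the left ventricle lies at 111 to 121 CPM in the cKO and 67.6 to 87.2 CPM in controls, and RV control 2 is far above the other RV controls for Tgfb2, Tgfb3, Ltbp1 and Smad7.

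In cKO left ventricles 2 ligand genes and the type I receptor gene rose, and no member fell. Tgfb2, the main TGF-beta ligand gene of developing myocardium and cushions, had 110.7, 121, 117.2 and 115.8 CPM in cKO left ventricles and 87.2, 67.6, 86.5 and 73.6 CPM in control left ventricles. Each cKO library was above each control, and the difference was 1.48-fold (log2 fold change 0.56, SE 0.16, adjusted p = 0.0154, edgeR quasi-likelihood test with Benjamini-Hochberg adjustment). Tgfb3, a ligand gene known for palate fusion and expressed in cushion mesenchyme, had 30.8, 30.8, 29.6 and 32.8 CPM in cKO and 21.5, 21.2, 23.8 and 24.1 CPM in control left ventricles. Its groups did not overlap either (log2 fold change 0.45, SE 0.16, adjusted p = 0.0423). Tgfbr1 had 131, 134, 138 and 134 CPM in cKO and 121, 115, 119 and 107 CPM in control left ventricles. The lowest cKO library thus exceeded the highest control (log2 fold change 0.22, SE 0.06, adjusted p = 0.0166). Of all 16448 genes tested, 25.6% were called in this comparison, 12.3% as higher, against 3 of these 10 genes as higher. The median log2 fold change was 0.22 over the 10 genes and 0.00 over all genes tested.

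The remaining 7 genes did not pass the test in the left ventricle. Ltbp1 had 195, 193, 189 and 200.2 CPM in cKO and 160.4, 159.5, 165 and 159.9 CPM in control left ventricles. Its groups were well apart, yet the adjusted p was 0.114 (log2 fold change 0.27, SE 0.12), in a fit whose estimate of the spread includes right ventricle control 2. Smad7 likewise had no overlap, with 26.2 to 28.3 CPM in cKO and 19.1 to 25.2 CPM in control left ventricles (log2 fold change 0.25, SE 0.15, adjusted p = 0.258). The co-receptor gene Tgfbr3 had 88.5 to 97 CPM in cKO and 73.1 to 90.8 CPM in control left ventricles, which overlap (log2 fold change 0.22, adjusted p = 0.0949). Tgfbr2, Smad2 and Smad3 had log2 fold changes of 0.13, 0.08 and 0.09, with adjusted p between 0.101 and 0.292. With limma on log2(TPM + 1), Smad2 was called higher (0.22, adjusted p = 0.0448). Tgfb1, the ligand gene of endothelial and blood cells, had 24.2 to 27.9 CPM in cKO and 23.5 to 30.3 CPM in control left ventricles, and its log2 fold change was -0.03 with a 95% interval of -0.18 to 0.13. In all, 5 of the 10 genes were higher without overlap between the groups, as were 14.1% of all genes tested.

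Without right ventricle control 2 the left ventricle fold changes hardly moved, while the shared spread shrank and 6 of the 10 genes were higher. Beside Tgfb2 (SE 0.08, adjusted p = 8.25e-05), Tgfb3 (SE 0.06, adjusted p = 3.88e-05) and Tgfbr1 (adjusted p = 0.00129), these were Ltbp1 (adjusted p = 4.8e-05), Tgfbr3 (adjusted p = 0.0254) and Smad7 (adjusted p = 0.0163), and 29.2% of all genes were called in that fit. With all libraries kept but 1 left ventricle taken out, the call of Tgfb3 was lost for each of the 8 (adjusted p 0.0587 to 0.102), that of Tgfb2 without control 2 (adjusted p = 0.054) and that of Tgfbr1 without control 4 (adjusted p = 0.0583). Tgfb3 also lost its call without right ventricle cKO 2 (adjusted p = 0.0525) or cKO 4 (adjusted p = 0.0511).

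Markers of other cell types moved in the same comparison. Of 10 endothelial markers 8 rose, and the sum of the 10 was 825 to 916 TPM in cKO and 667 to 699.6 TPM in control left ventricles. Of 9 epicardial markers 7 rose (sum 196 to 211 TPM in cKO, 135 to 147 TPM in control left ventricles), and of 6 macrophage markers 3 rose (133 to 168 TPM in cKO, 66.9 to 101.1 TPM in control left ventricles). Among cardiomyocyte markers, 6 of 8 fell (11992 to 12407 TPM in cKO, 14301 to 15278 TPM in control left ventricles). Of 8 atrial cardiomyocyte markers 6 rose. None of the 8 cushion mesenchyme markers passed the test in either direction (89.9 to 145 TPM in cKO, 106 to 213 TPM in control left ventricles), and no marker of these lists was at 0. The part of these shifts in the values of Tgfb2, Tgfb3 and Tgfbr1 was not tested, and in bulk tissue fewer cells of a type and less RNA per cell cannot be told apart.

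**Figure D2:**
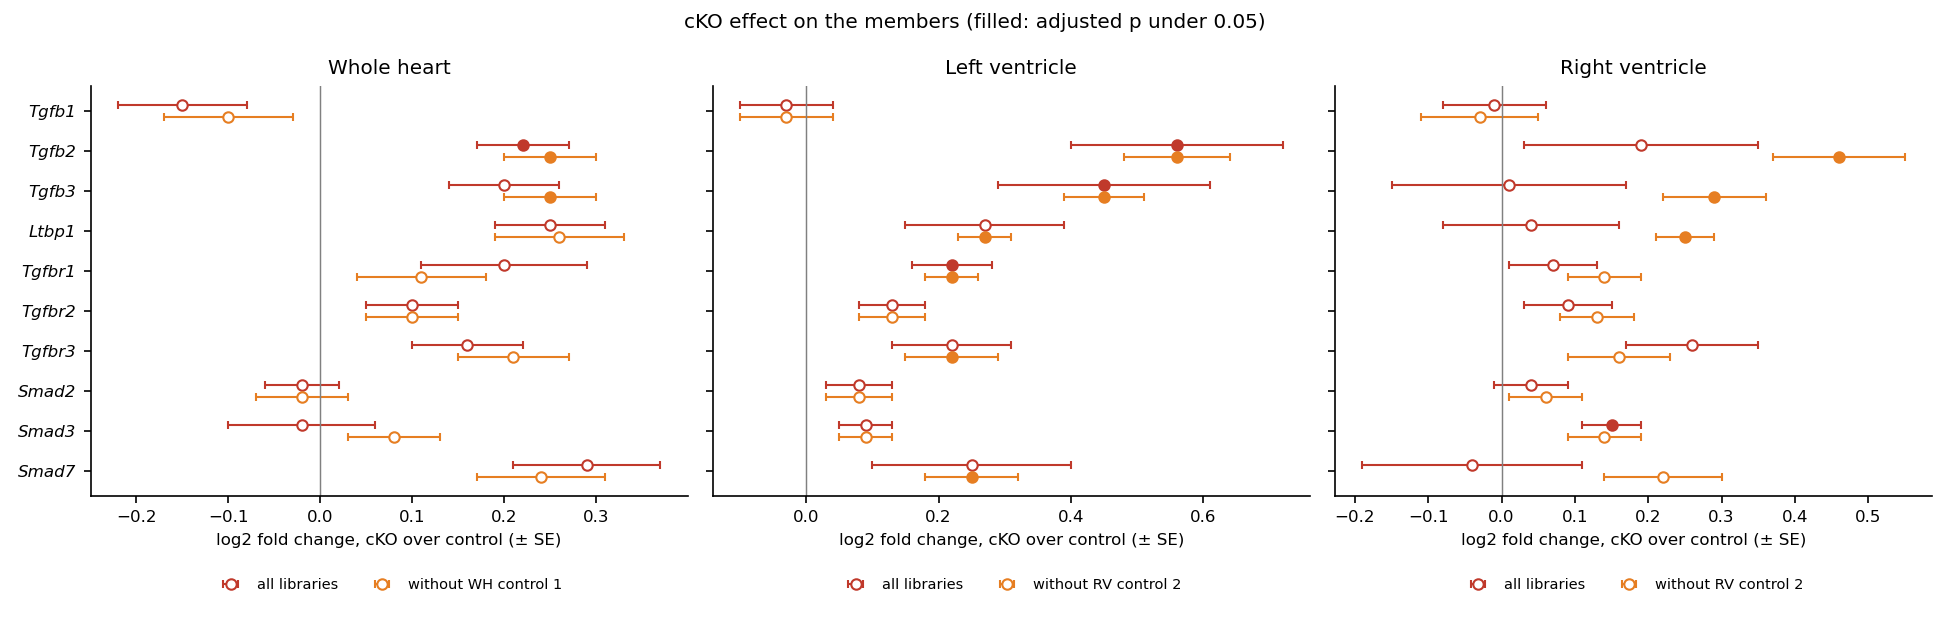
Log2 fold change of cKO over control with its SE (horizontal axis) for each of the 10 genes in the whole heart, left ventricle and right ventricle; red is the fit with all libraries, orange the fit without WH control 1 (left panel) or RV control 2 (other panels), and filled points have an adjusted p under 0.05. In the right ventricle Tgfb2 moves to 0.46, Tgfb3 to 0.29 and Ltbp1 to 0.25 when RV control 2 is left out.

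In cKO right ventricles 1 of the 10 genes, Smad3, rose. Smad3, a receptor-activated transducer of the pathway, had 78.9, 79, 73.6 and 77.6 CPM in cKO and 70.4, 68.5, 68.9 and 71.3 CPM in control right ventricles. All 4 cKO libraries exceeded all 4 control libraries by a small amount (log2 fold change 0.15, SE 0.04, adjusted p = 0.0365). Of all genes, 10.3% were called here, 6.12% as higher and 4.19% as lower. With limma on log2(TPM + 1) the log2 fold change was 0.03 (adjusted p = 0.918), and with counts scaled by transcript length it was 0.04 (adjusted p = 0.868). The call did not last when right ventricle control 2 was left out (log2 fold change 0.14, adjusted p = 0.0547), nor when any other single right ventricle was left out except cKO 3 (adjusted p 0.051 to 0.0986).

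The ligands and Ltbp1 in the right ventricle depended on 1 control. Tgfb2 had 87.9, 100.4, 111 and 109.9 CPM in cKO right ventricles, against 68.6, 82.3 and 72.3 CPM in controls 1, 3 and 4 and 135 CPM in control 2. Tgfb3 had 23.1, 24.8, 28.1 and 27.7 CPM in cKO right ventricles, against 20.5, 22 and 21.2 CPM in controls 1, 3 and 4 and 39.4 CPM in control 2. Ltbp1 had 214, 232, 205 and 222 CPM in cKO right ventricles, against 186, 189.9 and 173 CPM in the same 3 controls and 301.5 CPM in control 2. For these 3 genes each cKO library lay above the 3 controls and below control 2. With all libraries the log2 fold changes were 0.19 for Tgfb2 (adjusted p = 0.529), 0.01 for Tgfb3 (adjusted p = 0.992) and 0.04 for Ltbp1 (adjusted p = 0.897). Without control 2 the 3 genes were higher in the cKO: Tgfb2 by 0.46 (SE 0.09, adjusted p = 0.00282), Tgfb3 by 0.29 (SE 0.07, adjusted p = 0.0101) and Ltbp1 by 0.25 (SE 0.04, adjusted p = 0.000514) on the log2 scale. They were the only 3 of the 10 called in that fit, in which 14.5% of all genes were called.

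Smad7 followed the same outlying library, with 20.1 to 21.9 CPM in cKO right ventricles, against 16.6 to 19.7 CPM in controls 1, 3 and 4 and 32.7 CPM in control 2. Its log2 fold change was -0.04 with all libraries (adjusted p = 0.919) and 0.22 without control 2 (adjusted p = 0.0878). Tgfbr3 went the other way: control 2 had 75.1 CPM, below the 95.9 to 105 CPM of the other 3 controls, and cKO right ventricles had 99.2 to 124 CPM. Its log2 fold change was 0.26 with all libraries (adjusted p = 0.0951) and 0.16 without control 2 (adjusted p = 0.177). For Tgfbr1 and Tgfbr2 the log2 fold changes were 0.07 and 0.09 with all libraries (adjusted p 0.592 and 0.359). Tgfb1 and Smad2 had -0.01 and 0.04 (adjusted p 0.959 and 0.721). With all libraries 1 of the 10 genes was higher in each cKO right ventricle than in each control, against 7.61% of all genes, and 0 were lower, against 5.14%; without control 2 the numbers were 6 of 10 and 11.7%. Of the marker lists, 3 of 10 endothelial, 1 of 9 epicardial, 1 of 6 macrophage and 5 of 8 atrial cardiomyocyte markers rose in this comparison, and 5 of 10 erythroid markers (32122 to 61348 TPM in sum in cKO, 13830 to 32910 TPM in control right ventricles). Without control 2, 5 of 10 endothelial, 1 of 9 epicardial, 1 of 6 macrophage, 5 of 8 atrial cardiomyocyte and 1 of 10 erythroid markers were higher in the cKO, and 5 of 8 cardiomyocyte markers were lower, against 0 of 8 with all libraries. None of the 8 cushion mesenchyme markers was called in either fit. Their part in the values of the 10 genes was not tested.

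**Figure D3:**
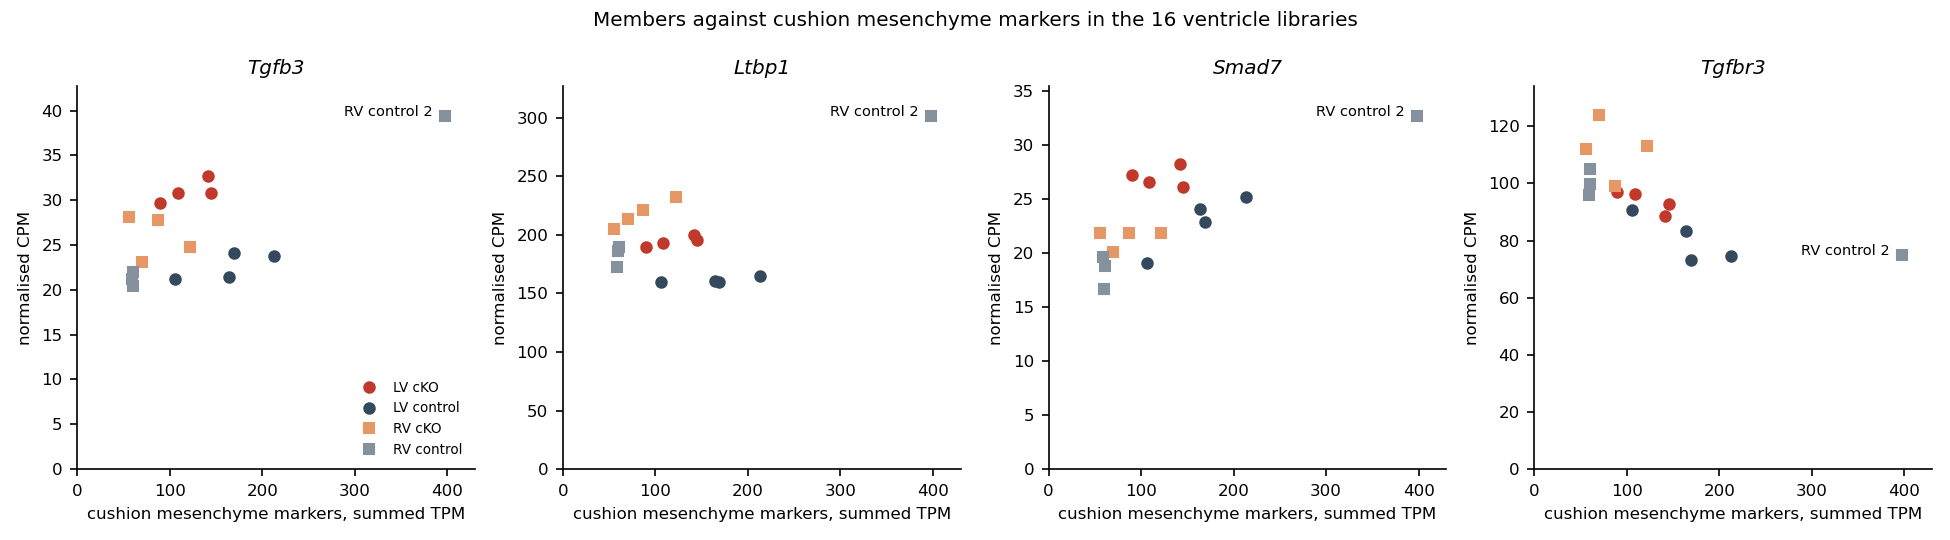
Normalised CPM of Tgfb3, Ltbp1, Smad7 and Tgfbr3 (vertical axes) against the summed TPM of 8 cushion mesenchyme markers (horizontal axes) in the 16 ventricle libraries, with circles for left and squares for right ventricles. RV control 2, at 398 TPM of markers, is the highest of the 16 for Tgfb3 (39.4 CPM), Ltbp1 (301.5 CPM) and Smad7 (32.7 CPM); below 214 TPM, left ventricle controls have more marker RNA than the other right ventricle controls, at Tgfb3 of 21.2 to 24.1 CPM against 20.5 to 22 CPM.

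Whether the cKO effect differed between the ventricles was tested directly, and none of the 10 genes passed with edgeR, whether right ventricle control 2 was in the fit or not. With all libraries 0 of the 10 had an unadjusted p under 0.05, and DESeq2 called 0 with 1 at an unadjusted p under 0.05. The share called over all genes was 1.43%. The log2 difference, left minus right, was 0.45 for Tgfb3 (95% interval -0.02 to 0.91, adjusted p = 0.389) and 0.37 for Tgfb2 (95% interval -0.11 to 0.85, adjusted p = 0.508). Without right ventricle control 2 these differences were 0.16 (SE 0.09, adjusted p = 0.495) and 0.10 (SE 0.13, adjusted p = 0.806), and that of Ltbp1 was 0.02 (SE 0.06, adjusted p = 0.953). The calls of Tgfb2, Tgfb3 and Tgfbr1 in the left ventricle are therefore not shown to be larger there.

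In whole hearts Tgfb2 was again higher in the cKO, with 146, 139 and 144 CPM in cKO and 127, 118 and 123 CPM in control whole hearts. Each cKO library exceeded each control (log2 fold change 0.22, SE 0.05, with an adjusted p of 0.0478), and it was the only one of the 10 genes called, where 4.03% of all genes were called (1.96% higher, 2.07% lower). Ltbp1 had 366, 332 and 314 CPM in cKO and 286, 275 and 289 CPM in control whole hearts (log2 fold change 0.25, SE 0.06, adjusted p = 0.0679). Smad7 had 32.4, 29.8 and 33.8 CPM in cKO and 24, 25.8 and 28.5 CPM in control whole hearts (log2 fold change 0.29, SE 0.08, adjusted p = 0.101). Tgfb3 had 39 to 41.2 CPM in cKO and 33.2 to 37.8 CPM in control whole hearts (log2 fold change 0.20, adjusted p = 0.157). These and Tgfbr2 and Tgfbr3 made 6 genes that were higher in every cKO library, against 13.8% of all genes, although 1 alone passed the test. Tgfb1 was the single gene with the opposite order, with 25.7, 25.7 and 23.6 CPM in cKO and 29.8, 25.8 and 27.8 CPM in control whole hearts (log2 fold change -0.15, adjusted p = 0.35), against 12.9% of all genes. Smad2 and Smad3 both had a log2 fold change of -0.02 (adjusted p 0.835 and 0.921).

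The call of Tgfb2 in the whole heart was lost when any library other than control 1 was left out (adjusted p 0.0776 to 0.196). Without control 1, the shallowest whole heart library, Tgfb2 (log2 fold change 0.25, adjusted p = 0.0217) and Tgfb3 (log2 fold change 0.25, SE 0.05, adjusted p = 0.0215) were both higher. Whole hearts held more cushion mesenchyme RNA than ventricles: the 8 markers summed to 667 to 742 TPM in cKO and 576 to 634 TPM in control whole hearts, and none of the 8 passed the test. Of 6 macrophage markers 1 rose (171 to 196 TPM in sum in cKO, 74.2 to 79.2 TPM in control whole hearts), with 2 of 10 endothelial and 5 of 8 atrial cardiomyocyte markers, and 3 of 8 cardiomyocyte markers fell. Their part in the values of Tgfb2 was not tested.

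Between left and right ventricles, Tgfbr1 and Tgfbr3 were called in the cKO and Tgfbr1 and Ltbp1 in controls. With summed counts Tgfbr1 was higher in the left ventricle in both genotypes. Its call in controls was lost with limma on log2(TPM + 1) (adjusted p = 0.079) and with counts scaled by transcript length (adjusted p = 0.0848). In the cKO it had 131, 134, 138 and 134 CPM in left and 107, 100.2, 98.2 and 98.1 CPM in right ventricles, with no overlap (log2 fold change, left over right, 0.41, SE 0.06, adjusted p = 9.79e-05). In controls it had 121, 115, 119 and 107 CPM in left and 96.3, 112, 86.5 and 91.5 CPM in right ventricles (log2 fold change 0.26, SE 0.06, adjusted p = 0.00659), where right ventricle control 2 reached into the left ventricle range. Of all genes, 32.8% were called between the sides in the cKO (14.5% higher and 18.3% lower on the left) and 21.0% in controls (9.02% higher and 12.0% lower). Calls of 2 of the 10 genes in each genotype, 1 in each direction, lie near or below the share of all genes. Without overlap, 3 of the 10 were higher and 2 lower on the left in the cKO, against 15.5% and 18.7% of all genes. In controls 0 were higher and 1 was lower, against 9.75% and 11.0% of all genes, and without right ventricle control 2 the numbers were 1 and 2, against 16.1% and 18.0%.

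Tgfbr3 ran the other way in the cKO, with 88.5 to 97 CPM in left and 99.2 to 124 CPM in right ventricles (log2 fold change -0.26, SE 0.09, adjusted p = 0.0398). Its value in controls was -0.22 (adjusted p = 0.0982) and, without right ventricle control 2, -0.32 (SE 0.07, adjusted p = 0.0044). The call in the cKO was lost without any 1 of the 4 cKO left ventricles or without right ventricle cKO 1, 2 or 3 (adjusted p 0.056 to 0.12). Ltbp1 was lower in left than in right control ventricles (log2 fold change -0.40, SE 0.12, adjusted p = 0.0262), and also without right ventricle control 2, by a smaller amount (-0.18, SE 0.04, adjusted p = 0.00372). That call was lost without left ventricle control 1, 2 or 4 (adjusted p 0.0523 to 0.0611). In the cKO, Ltbp1 had 189 to 200.2 CPM in left and 205 to 232 CPM in right ventricles (log2 fold change -0.17, adjusted p = 0.319, and 0.00283 without right ventricle control 2).

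Smad7 had 26.2 to 28.3 CPM in left and 20.1 to 21.9 CPM in right ventricles of the cKO, without overlap (log2 fold change 0.34, SE 0.15, adjusted p = 0.0977). When right ventricle control 2 was left out Smad7 was higher in left ventricles of both genotypes, by 0.34 in the cKO (adjusted p = 0.0017) and by 0.31 in controls (adjusted p = 0.00903) on the log2 scale. Tgfb3 was then also higher in left ventricles of the cKO (0.26, adjusted p = 0.00394), whereas its value in controls was 0.09 (adjusted p = 0.356). In that fit 5 of the 10 genes were called between the sides in the cKO and 4 in controls, where 36.1% and 26.9% of all genes were called. Smad2 and Smad3 had log2 fold changes between -0.01 and 0.06 in both genotypes, with 95% intervals within -0.12 to 0.15. Markers of cell types differed between the sides too: 7 of 9 epicardial and 4 of 6 macrophage markers were higher and 6 of 8 cardiomyocyte markers lower on the left in the cKO, and in controls the counts were 1 of 9, 1 of 6 and 4 of 8. Of 10 endothelial markers, 5 were higher on the left in the cKO and 2 in controls, and 2 of 4 mural markers were lower in each genotype. Of the 8 cushion mesenchyme markers, 1 was higher on the left in the cKO and 0 in controls. Without right ventricle control 2, 3 of the 8 were higher on the left in the cKO, where their sum was 89.9 to 145 TPM in left and 55.6 to 122 TPM in right ventricles. In controls all 8 were then higher, with a median log2 fold change of 1.29 and sums of 106 to 213 TPM in left and 58.6 to 60.4 TPM in right ventricles. In the same fit 9 of 9 epicardial and 5 of 6 macrophage markers were higher on the left in the cKO, against 2 of 9 and 1 of 6 in controls. Of 10 endothelial markers, 6 were then higher in the cKO, and in controls 3 were higher and 1 lower. Of 4 mural markers, 1 was higher and 2 lower in the cKO, and 1 was lower in controls. Cardiomyocyte markers were lower for 6 of 8 in each genotype. Their part in these values was not tested.

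The transcripts behind 2 genes affect what their gene-level values mean. Tgfb3 has 1 annotated transcript and is free of this question. Ltbp1 has a long form, from a start at 75005568 on chromosome 17 (Ltbp1-201, 6671 bases), and short forms from starts at 75178810 and 75178911 (Ltbp1-203 and Ltbp1-202, the last of 4870 bases). The short form Ltbp1-202 was the most abundant in each of the 6 groups, at 44.2% ± 3.19 of the gene's TPM in cKO and 43.0% ± 3.27 in control left ventricles. In TPM it averaged 23.2 ± 0.435 in cKO and 19.3 ± 1.62 in control left ventricles, and the long Ltbp1-201 averaged 15.2 ± 1.61 in cKO and 11.4 ± 0.464 in control left ventricles (SD, n = 4 each). Both forms thus had higher mean TPM in the cKO left ventricle, and the split between them was the deposited estimate. The short Ltbp1-207 (519 bases), annotated as a processed transcript, held 21.6% ± 3.95 in cKO and 25.6% ± 1.86 in control left ventricles. Tgfbr2 also has a pair of forms, and the shorter Tgfbr2-201 (3476 bases) held 63.2% ± 2.72 of TPM in cKO and 60.8% ± 3.2 in control left ventricles. The short Smad7-204 (769 bases) held 42.9% ± 16.8 of Smad7 TPM in left and 28.7% ± 13.9 in right ventricles of the cKO. Counts scaled by transcript length called Smad7 higher on the left in the cKO (log2 fold change 0.78, SE 0.25, adjusted p = 0.0364), where the summed counts gave 0.34. Smad3 in the right ventricle also differed between these measures, as given above.

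For Tgfb1 the gene's TPM and its counts did not tell the same story. The full-length coding transcript Tgfb1-201 (2175 bases) held 85.1% ± 11.8 of the gene's TPM in cKO and 58.8% ± 8.02 in control right ventricles, and the rest went mainly to short transcripts of 241 and 700 bases, Tgfb1-205 and Tgfb1-202. Because a read on a short transcript weighs more in TPM, Tgfb1 summed to 10.6 ± 1.84 TPM in cKO and 15.1 ± 2.35 TPM in control right ventricles, while its counts were 23.9 ± 1 CPM in cKO and 24.1 ± 1.85 CPM in control right ventricles (SD, n = 4 each). Counts scaled by transcript length called Tgfb1 lower in the cKO right ventricle (log2 fold change -0.50, SE 0.11, adjusted p = 0.0131), as did limma on log2(TPM + 1) (-0.47, adjusted p = 0.0372), where the summed counts gave -0.01. The coding transcript itself averaged 8.89 ± 0.707 TPM in cKO and 8.73 ± 0.216 TPM in control right ventricles. In whole heart control 1, Tgfb1 stood at 35.6 TPM, against 12.4 and 12.8 TPM in the other 2 controls, with counts of 29.8, 25.8 and 27.8 CPM in controls 1, 2 and 3.

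**Figure D4:**
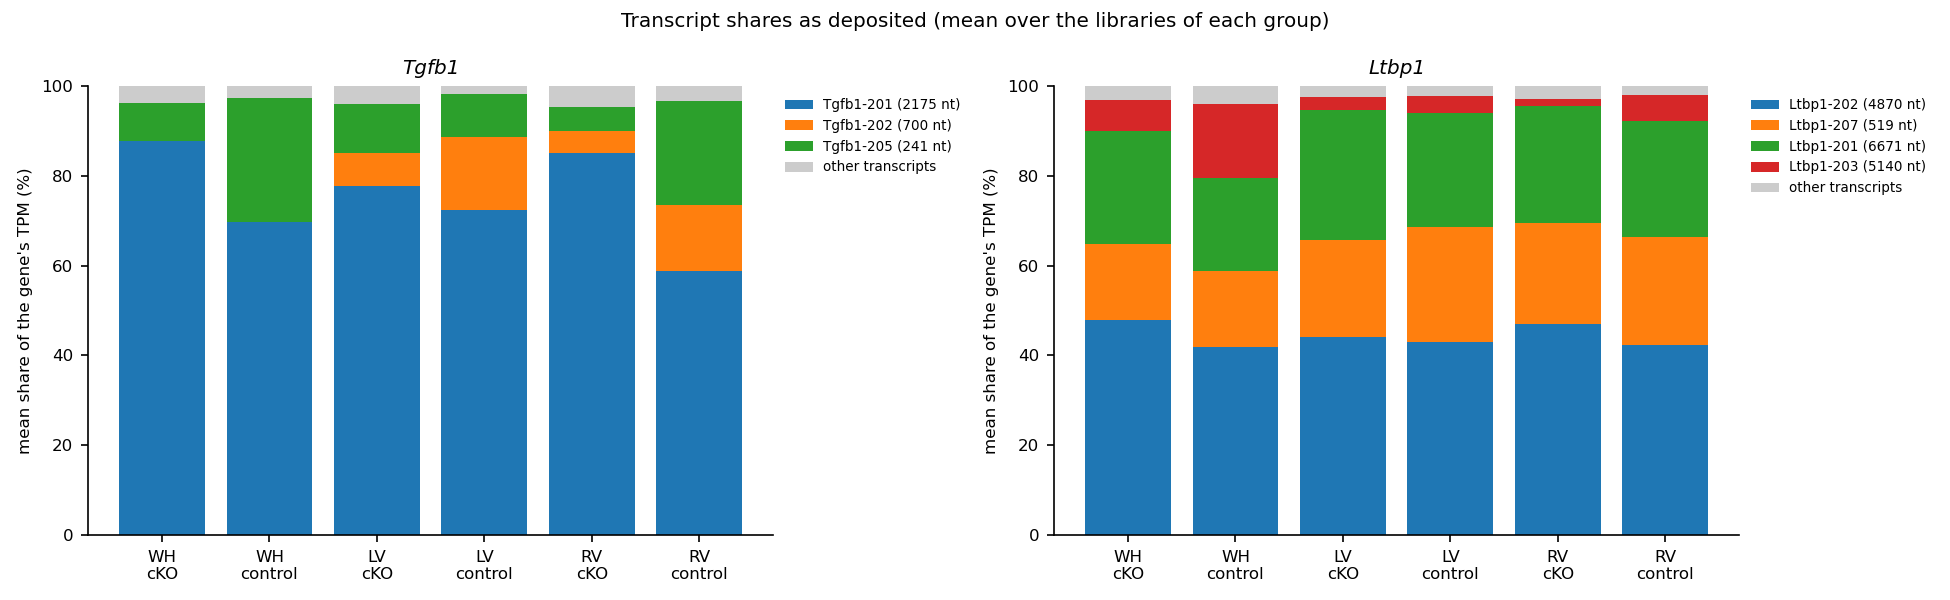
Mean share of a gene's TPM (vertical axis, percent) held by each annotated transcript of Tgfb1 and Ltbp1 in the 6 groups, as the deposited files estimate it, with transcript lengths in nucleotides in the legend. In the right ventricle Tgfb1-201 takes 85.1% in the cKO and 58.8% in controls, and Ltbp1-202 takes 41.9% to 47.9% of Ltbp1 in all 6 groups.

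Across the ventricle libraries some of the 10 genes varied together. Over the 15 libraries other than right ventricle control 2, log2 CPM of Tgfb2 and Tgfb3 had a Pearson correlation of 0.92, Tgfbr1 and Smad7 one of 0.83, Tgfb3 and Smad7 one of 0.80, Tgfb3 and Tgfbr2 one of 0.79, and Ltbp1 and Tgfbr3 one of 0.77. Over all 16 libraries these were 0.92, 0.71, 0.86, 0.69 and 0.22, in the same order, so the last rests on leaving out right ventricle control 2. Tgfb1 was the least tied to the other ligands (-0.06 with Tgfb2, 0.15 with Tgfb3). These values describe libraries that also share genotype, side and depth. Among 12284 other protein-coding genes, the pattern most like that of Tgfb2 over these libraries was that of Mark1 (0.94) and Arcn1 (0.93). The closest to Tgfb3 were Scarf2 (0.96) and Bgn, which encodes the matrix proteoglycan biglycan (0.95). For Tgfbr1 they were Plxna2 (0.98) and Arhgef3 (0.97), for Tgfbr3 Smpx (0.97) and Tmed10 (0.94), and for Ltbp1 Opn4 (0.96) and Tspan7 (0.95). Smad2 had no close match, with 0.79 at most (Ss18 and Gpr39).

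The wider pathway was read from 62 further genes, of which 59 could be tested in the ventricles and 60 in the whole heart. These lists too were chosen with earlier results of these data known, so the shares below are descriptions. In cKO left ventricles 17 of the 59 rose and 3 fell, or 28.8% and 5.08%, against 12.3% and 13.4% of all genes. In cKO right ventricles 6 rose and 1 fell, or 10.2% and 1.69%, against 6.12% and 4.19% of all genes. Without right ventricle control 2 the counts were 16 and 1 in the right ventricle, where 14.5% of all genes were called in either direction, and 22 and 4 in the left ventricle, where 29.2% were. In whole hearts 2 of 60 rose (3.33%), Fbn2 and Smad9, and 0 fell, against 1.96% and 2.07% of all genes. The lists of this pathway hold genes that endothelium, epicardium and mesenchyme also express, and those markers moved as given above.

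Among 13 genes for latency and activation, 4 of the 12 tested rose in cKO left ventricles, against 12.3% of all genes. Furin, the protease that cuts the TGF-beta propeptide, had 164.5 to 169 CPM in cKO and 117 to 132 CPM in control left ventricles, with no overlap (log2 fold change 0.46, SE 0.05, adjusted p = 2.23e-06). Itgb8 and Itgav, whose integrin releases latent TGF-beta, rose by 0.50 (adjusted p = 0.00203) and 0.35 (adjusted p = 0.00129), and the fibrillin gene Fbn2 by 0.44 (adjusted p = 0.00235) on the log2 scale. In right ventricles Itgb8 (0.41, adjusted p = 0.0382) and Furin (0.24, adjusted p = 0.00263) rose too, the 2 of 12 called there with all libraries. Of all genes, 6.12% rose there. Without right ventricle control 2, 6 of the 12 were higher in right and 6 in left ventricles of the cKO. In that fit 14.5% of all genes were called on the right and 29.2% on the left. With all libraries Itgav was 1 of 2 pathway genes whose cKO effect differed between the ventricles. It had 104 to 124 CPM in cKO and 78.9 to 95.3 CPM in control left ventricles, against 87.8 to 99.5 CPM in cKO and 91.6 to 110.2 CPM in control right ventricles (difference 0.45, SE 0.10, adjusted p = 0.0359). Itgb8 also had far more RNA on the left, with 27.2 to 30.5 CPM in left and 9.68 to 12.6 CPM in right ventricles of the cKO (log2 fold change 1.38, SE 0.11, adjusted p = 1.76e-07) and 19.7 to 20.9 CPM in left and 6.4 to 10.7 CPM in right ventricles of controls (log2 fold change 1.29, SE 0.11, adjusted p = 1.12e-06).

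Of the 3 other receptor genes, Eng rose in both ventricles, the endoglin co-receptor of endothelium. It had 309 to 346 CPM in cKO and 241 to 266 CPM in control left ventricles (log2 fold change 0.37, adjusted p = 1.15e-05), and 299.5 to 324 CPM in cKO and 248 to 275 CPM in control right ventricles (log2 fold change 0.27, adjusted p = 0.000725). With all libraries 12.3% of all genes rose and 13.4% fell on the left, and 6.12% rose and 4.19% fell on the right. Among 7 other transducers, 3 rose in the left ventricle. Of the BMP-branch Smads, Smad9 had 9.76 to 11.8 CPM in cKO and 4.65 to 5.81 CPM in control left ventricles (log2 fold change 1.03, SE 0.24, adjusted p = 0.00479), and Smad5 rose by 0.24 (adjusted p = 0.000459), whereas Smad1 had 0.14 and was not called (adjusted p = 0.0847). Map3k7, which encodes the kinase TAK1, rose by 0.14 (adjusted p = 0.013). With all libraries, the shared partner gene Smad4 was the 1 of 7 that rose in right ventricles. It had 77.7 to 93.5 CPM in cKO and 68.1 to 78.2 CPM in control right ventricles (log2 fold change 0.26, adjusted p = 0.00957), groups that overlap slightly. Its level in left ventricles was 68.8 to 76.8 CPM in the cKO and 64.8 to 73.3 CPM in controls, and it was not called there. Of 12 negative regulators, 3 rose in cKO left ventricles, Smurf1 (0.14, adjusted p = 0.0182), Ski (0.12, adjusted p = 0.0223) and Smad6 (0.46, adjusted p = 0.0329), and Tgif2 fell (-0.17, adjusted p = 0.0122). In right ventricles 0 of the 12 were called with all libraries. Without right ventricle control 2, 2 of the 12 were higher there, as were 3 of the 7 other transducers. On the left 4 negative regulators were then higher and 1 lower, and 3 of the other transducers were higher and 1 lower. In that fit 14.5% of all genes were called on the right and 29.2% on the left.

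Genes named in textbooks as TGF-beta targets did not move as 1 group. Of 15, 4 rose and 1 fell in cKO left ventricles, with a median log2 fold change of 0.14, and 1 rose and 0 fell in right ventricles, with a median of -0.18. Of all genes, 12.3% rose and 13.4% fell on the left, and 6.12% rose and 4.19% fell on the right. The 1 of 15 that rose on the right (6.67%) was near the share of all genes. The right ventricle median depended on control 2. Without right ventricle control 2 it was 0.07, and 2 rose and 0 fell there. On the left 6 then rose and 1 fell (median 0.14). In that fit 14.5% of all genes were called on the right and 29.2% on the left. With all libraries Fn1, which encodes fibronectin, rose on both sides (0.26, adjusted p = 0.000262, and 0.17, adjusted p = 0.0176). Ccn2, the connective tissue growth factor gene, had 146 to 331 CPM in cKO and 92.3 to 140 CPM in control left ventricles (log2 fold change 0.94, SE 0.26, adjusted p = 0.0128). Col1a1 (0.45, adjusted p = 0.0119) and Tagln (0.87, adjusted p = 0.0132) rose as well. Acta2, the smooth muscle actin gene that embryonic cardiomyocytes also express, fell: it had 338 to 356 CPM in cKO and 515.5 to 566 CPM in control left ventricles (log2 fold change -0.65, SE 0.10, adjusted p = 0.000184). In right ventricles Acta2 was higher than in left ones, at 1069 to 1618 CPM in the cKO and 1381 to 1707 CPM in controls. Tagln and Smad6 were named after their values were seen.

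The largest changes among the 62 genes in the left ventricle were those of 2 activin-branch genes, Acvr1c and Fst. Of the 10 tested in this branch, 2 rose and 1 fell there (median log2 fold change -0.04), against 12.3% and 13.4% of all genes. In right ventricles 1 rose and 1 fell (median -0.15), against 6.12% and 4.19%. Without right ventricle control 2 the counts were 2 and 1 on each side, where 29.2% (left) and 14.5% (right) of all genes were called. Acvr1c, the gene of the type I receptor ALK7, had 6.43 to 7.38 CPM in cKO and 1.75 to 2.12 CPM in control left ventricles (log2 fold change 1.89, SE 0.15, adjusted p = 1.18e-07). In right ventricles it had 0.883 to 1.57 CPM in the cKO and 0.718 to 0.843 CPM in controls, and its effect differed between the sides (difference 1.38, SE 0.24, adjusted p = 0.00657). Fst, which encodes the activin antagonist follistatin, had 9.64 to 11.3 CPM in cKO and 2.92 to 3.55 CPM in control left ventricles (log2 fold change 1.68, SE 0.23, adjusted p = 4.77e-05). Fst also rose in right ventricles, with 2.16 to 2.93 CPM in the cKO and 0.701 to 2.53 CPM in controls, the highest of which was control 2 (log2 fold change 1.01, adjusted p = 0.0229, and 1.57, adjusted p = 9.66e-06, without control 2). The activin receptor genes Acvr1b (-0.15, adjusted p = 0.0162, left) and Acvr2a (-0.22, adjusted p = 0.0109, right) fell slightly, each on 1 side.

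**Figure D5:**
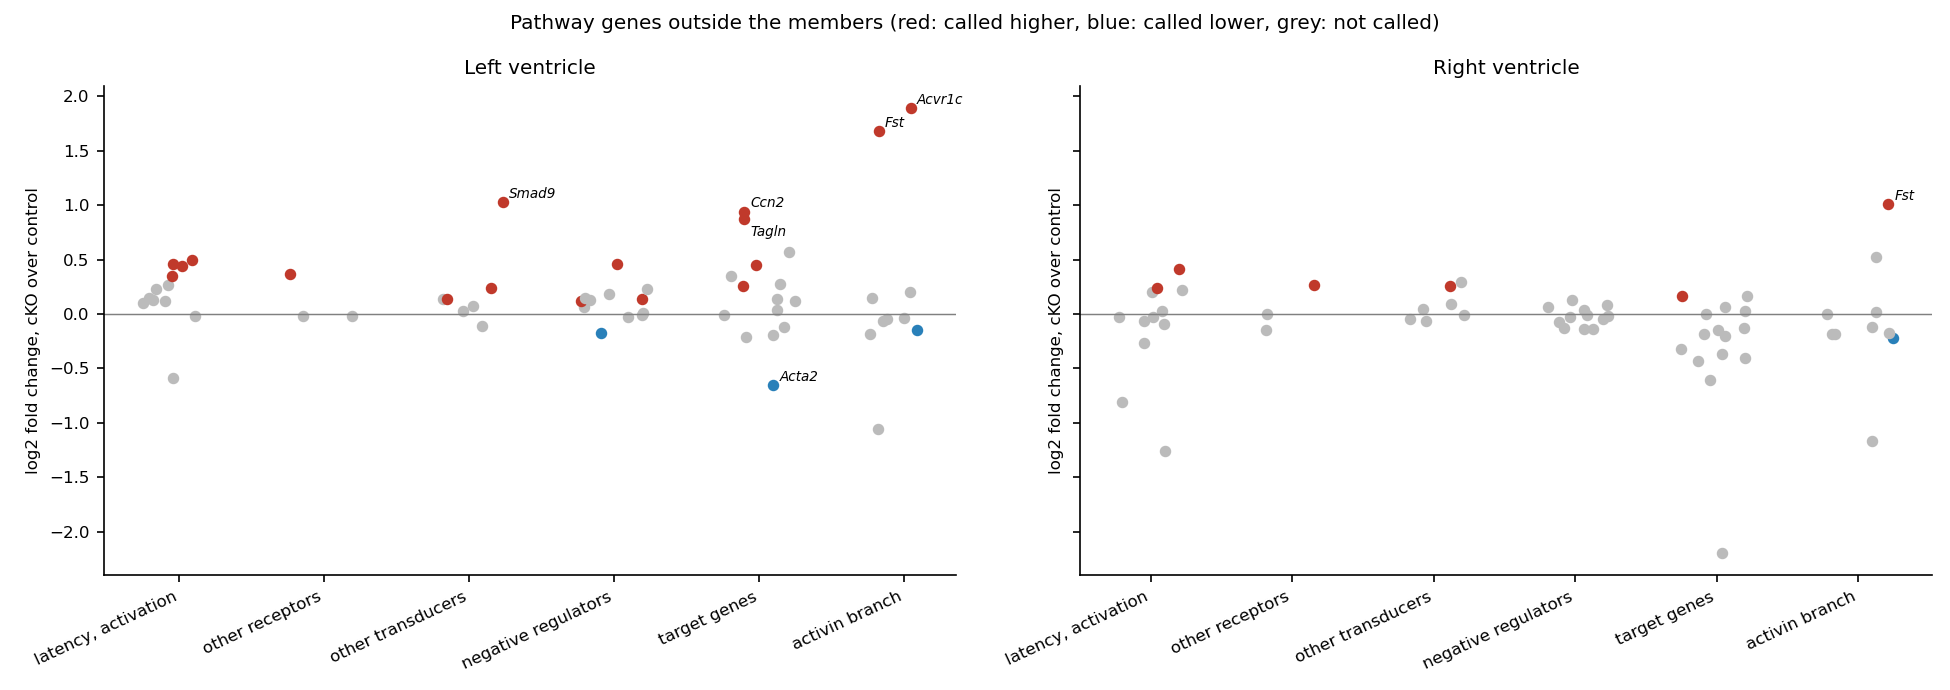
Log2 fold change of cKO over control (vertical axis) of the 59 tested pathway genes outside the 10, by list (horizontal axis), in the left and right ventricle with all libraries; red points are called higher, blue lower and grey not called. Acvr1c (1.89) and Fst (1.68) lie highest in the left ventricle and Acta2 (-0.65) is the lowest called.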

How the data were processed

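Bulk RNA sequencing libraries were made from TRIzol-extracted RNA (RNA integrity numbers 6.1 to 10) with a stranded mRNA kit, per the labels' protocols. The deposited values are estimated counts per transcript, TPM (abundance per transcript length) and effective lengths, in the format of Salmon. Salmon 1.2.1 and DESeq2 1.22.2 are named in the submitters' processing notes, with no role given. Of 140658 transcripts, 140137 were matched to genes of the GENCODE annotation used here (GRCm38), a release before the one the files are named for, and the other 521 took up to 0.204% of the reads.

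Estimated counts were summed per gene, rounded to whole numbers and tested with edgeR 4.0.16 in R 4.3.3 (TMM scaling, filterByExpr, quasi-likelihood F test, Benjamini-Hochberg adjustment over all genes tested, threshold 0.05). The design text speaks of pairs without saying which libraries pair. The 6 whole hearts were fitted alone (19160 genes tested), and the 16 ventricles together with 4 group means (16448 genes tested). DESeq2 1.42.0 and limma 3.58.1 on log2(TPM + 1) were alternatives. Intervals are at 95%, and TPM were used to order genes by level, since they account for length. The 10 members and all gene lists were chosen with earlier results of these data known. Named pathway genes are up to 3 called per list and comparison with the smallest p, and likeness lists give 2 genes per member. The comparisons between genotypes and between sides share the same ventricle libraries. On simulated counts, 93% of genes changed by 1 on the log2 scale and 72% of those changed by 0.5 were called in the left ventricle comparison (16254 genes tested). In the whole heart these were 73% and 34% (18565 genes tested). Only a small part of the genes tested was changed, in 1 run. Most of the 10 genes had smaller fold changes than 0.5, for which these rates do not hold.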

Additional observations from a re-analysis of the deposited data

Results flagged for a closer look

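Of 40 groups of 4 ventricle libraries (10 genes in 4 groups), 5 held a library far from the other 3 by Dixon's test, where chance gives about 1 in 20. For 2 of them the library was right ventricle control 2: Tgfb3 had 39.38 CPM there, against 20.48 to 21.96 CPM in the other 3 controls, and Ltbp1 had 301.5 CPM, against 172.6 to 189.9 CPM. The same library held 398 TPM of cushion mesenchyme markers, and the part of that RNA in these values was not tested. The other 3 were close to their groups in size: Tgfb1 had 22.43 CPM in right ventricle cKO 3 (24.3 to 24.5 CPM in the other 3), Smad7 had 20.12 CPM in right ventricle cKO 1 (21.84 to 21.91 CPM), and Ltbp1 had 164.8 CPM in left ventricle control 3 (159.5 to 160.4 CPM).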

How the results depend on the processing

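Few of the 10 genes passed the test and most calls lay near the threshold, so their number moved with the processing. In the whole heart 1 was called (4.03% of all genes), against 2 without a filter on low counts (Ltbp1 added, 2.97%) and 3 with DESeq2 (Ltbp1 and Smad7 added, 9.02%). With limma on TPM, length-scaled counts and a replicate block 0 were called there (0.428%, 0.703% and 1.14% of all genes). In the right ventricle 0 were called with RLE size factors (Smad3 adjusted p = 0.0521, 10.2% of all genes called) and 0 without a filter (adjusted p = 0.0747, 4.35%). With limma and length-scaled counts Smad3 had 0.03 and 0.04 there (adjusted p 0.918 and 0.868), while Tgfb1 was called lower (4.38% and 5.01% of all genes called). In the left ventricle Tgfb3 lost its call with limma (adjusted p = 0.0611) and length-scaled counts (adjusted p = 0.0676). With only the 8 libraries compared, 6 were called in the left ventricle (29.2% of all genes), 5 between the sides in the cKO (36.4%) and 1 in controls (15.9%). Between the sides in the cKO, limma and length-scaled counts both called 4, Tgfb1, Tgfbr1, Tgfbr2 and Smad7, all higher on the left (24.0% and 19.3% of all genes called). Tgfbr3 lost its call there (adjusted p 0.345 and 0.0897). In controls both called 0 (8.43% and 10.2% of all genes). Tgfbr1 (adjusted p 0.079 and 0.0848) and Ltbp1 (adjusted p 0.228 and 0.0529) lost their calls. The difference in cKO effect could not be fitted with only 8 libraries. Leaving out 1 library gave 0 to 2 called in the whole heart, 2 to 6 in the left ventricle and 0 to 3 in the right ventricle. Of all genes, 0.938% to 6.54%, 21.2% to 29.2% and 7.73% to 14.5% were called, in the same order. For the difference 0 to 0 of the 10 were called (0.749% to 2.15% of all genes). Between the sides these were 1 to 5 in the cKO (26.9% to 36.1%) and 1 to 4 in controls (15.5% to 26.9%). With a minimum of 1 CPM all 60 single-gene values kept their direction and side of the threshold.

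No value that changed sign was called in either fit. Under other settings these were, on the log2 scale, Tgfb3 in the right ventricle (-0.0018, RLE), Smad3 between the sides in the cKO (-0.0026 without a filter, -0.0003 with 8 libraries), and with limma Tgfb1 in the left ventricle (0.02), the differences of Tgfb1 (0.49), Tgfbr3 (0.02) and Smad3 (0.15), and Tgfb1 between the sides in controls (-0.01). With length-scaled counts they were the differences of Tgfb1 (0.46) and Smad3 (0.09), Smad2 between the sides in the cKO (-0.03) and Tgfb1 in controls (-0.08). The cause was not tested. Leaving out 1 library, values ran from -0.08 to 0.08 for Smad3 in the whole heart, -0.08 to 0.05 for Tgfb1 in the left ventricle, and in the right ventricle from -0.04 to 0.04 for Tgfb1, -0.09 to 0.29 for Tgfb3, -0.05 to 0.25 for Ltbp1 and -0.15 to 0.22 for Smad7. For the difference they ran from -0.07 to 0.06 for Tgfb1, -0.0036 to 0.08 for Tgfbr2 and -0.09 to 0.06 for Tgfbr3. Between the sides they ran from -0.02 to 0.01 for Smad3 in the cKO, and in controls from -0.29 to 0.08 for Tgfb2, -0.28 to 0.09 for Tgfb3, -0.05 to 0.01 for Smad2 and -0.06 to 0.31 for Smad7.

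Over all genes, 773 were called in the whole heart, against 1728 with DESeq2, 82 with limma, 135 with length-scaled counts, 218 with the replicate block and 184 to 1292 when 1 library was left out. With limma and length-scaled counts, 2637 and 2685 were called in the left ventricle (4216 in the main analysis), 721 and 831 in the right ventricle (1696), and 1387 and 1693 between the sides in controls (3462). For the difference, 466 were called with DESeq2, 46 with limma and 59 with length-scaled counts (236), and between the sides in the cKO 3208 with length-scaled counts (5398). Deviations of same-numbered libraries correlated at 0.06 to 0.25 between left and right ventricles of the cKO and at -0.12 to 0.10 in the other comparisons. In no comparison did every pair exceed 0.1, so the numbers were not taken to pair the libraries, although they may do so for the sides of the cKO. Under the replicate block Tgfb2 in the whole heart had 0.22 (adjusted p = 0.142). With 3 or 4 libraries a group and changes mostly under 0.5 on the log2 scale, a gene that was not called is not shown to be unchanged.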
